A study of Homo sapiens with 6 samples.

Results

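In HepG2 cells treated with oridonin, 10 genes of metal handling were followed: the metallothionein genes MT2A, MT1E, MT1F, MT1G and MT1X, the regulator gene MTF1, the zinc exporter gene SLC30A1, the manganese exporter gene SLC30A10, and the metal importer genes SLC39A14 and SLC39A10. They were found by symbol in the deposited log2 FPKM table and joined by Ensembl identifier to the count table, where they are 10 of 60504 genes. All 10 passed the filter on low counts and are 10 of the 15116 genes tested. HepG2 is an established human liver carcinoma line, grown here as adherent cells in DMEM in 6-well plates. One group received 10 µM oridonin, which is a plant diterpenoid, for 48 h, and the other received 0.1% DMSO for 48 h, with 3 libraries each. The labels do not say whether the oridonin wells held DMSO, nor whether the 3 libraries of a group came from separate cultures. The p-values therefore cover the spread among these libraries only, and that spread may be technical.

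Metallothioneins are small cysteine-rich proteins that bind zinc and copper in the cytosol, and the liver is a main site of their production. MTF-1, the product of MTF1, is a zinc-sensing transcription factor that binds metal response elements in the promoters of metallothionein genes and of SLC30A1. Carriers of the SLC30 family move metal out of the cytosol, and carriers of the SLC39 family move it in. SLC39A14 brings manganese, zinc and iron into hepatocytes, and SLC30A10 exports manganese, so inherited loss of either disturbs the manganese balance of the body.

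The 5 metallothionein genes lie within 76.0 kb of chromosome 16 (hg38). The coding sequences of MT2A, MT1E, MT1F and MT1G are shown because these genes moved in different directions. Yet the coding parts of MT1E, MT1F and MT1G are at least 91.3% identical to that of MT2A. The sequence of MT1X is not printed. Each coding sequence below has 183 bases in 3 coding exons, without the stop codon, and is printed 5′ to 3′ on the coding strand from GENCODE 29. Capitals mark the bases that differ from MT2A.
MT2A: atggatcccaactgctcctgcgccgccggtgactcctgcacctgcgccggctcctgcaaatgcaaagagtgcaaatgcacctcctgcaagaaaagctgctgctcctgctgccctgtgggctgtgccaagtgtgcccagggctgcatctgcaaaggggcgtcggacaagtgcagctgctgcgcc
MT1E: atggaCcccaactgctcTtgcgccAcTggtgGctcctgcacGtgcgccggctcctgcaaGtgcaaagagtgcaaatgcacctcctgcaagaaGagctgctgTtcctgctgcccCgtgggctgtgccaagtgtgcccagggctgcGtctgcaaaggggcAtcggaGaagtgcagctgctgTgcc
MT1F: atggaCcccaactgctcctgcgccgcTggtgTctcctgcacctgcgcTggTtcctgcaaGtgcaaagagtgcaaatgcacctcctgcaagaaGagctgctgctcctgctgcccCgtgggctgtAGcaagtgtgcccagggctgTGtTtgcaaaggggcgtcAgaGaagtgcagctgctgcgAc
MT1G: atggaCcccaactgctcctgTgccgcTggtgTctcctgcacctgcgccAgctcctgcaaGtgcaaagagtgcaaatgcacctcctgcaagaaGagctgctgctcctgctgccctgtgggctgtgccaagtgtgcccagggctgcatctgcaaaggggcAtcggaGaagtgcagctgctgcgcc
MT1G differs from MT2A at 9 bases (95.1% identical), MT1E at 14 (92.3%), MT1X at 14 (92.3%) and MT1F at 16 (91.3%). MT1E and MT1G are 94.5% identical.

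Stretches that whole transcripts share bear on whether reads of one gene could be given to another. Of the stretches of 50 bases in the GENCODE transcripts of each gene, the share also found in a transcript of another gene was 3.02% for MT2A, 7.10% for MT1E, 1.22% for MT1F, 16.5% for MT1G and 18.3% for MT1X. With stretches of 100 bases it was 0% for MT2A, MT1E, MT1F and MT1G and 11.3% for MT1X, all of it shared with the gene model AC026461.1, which had 0 counts in all 6 libraries. Those are 223 of 1967 stretches over all MT1X transcripts, while the MT1X transcript used for its coding sequence has 450 bases. Reads that fit both genes may have been counted to neither, which was not tested. Among the carriers and MTF1 the share at 50 bases was at most 0.640%. The sources used here give neither the read length, the aligner nor the rule for reads with several matches, so how reads were split between metallothionein genes was not tested.

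The 250 bases before the RefSeq transcript start were searched for the core of the metal response element, TGCGCNC or TGCACNC, on both strands, because this is the sequence that MTF-1 binds. The RefSeq promoter table (GRCh38.p14) holds 6 of the 10 genes, with 8 windows. MT1E, MT1F, MT1G and SLC39A14 are not in it, so their promoters were not searched. MT2A held 7 matches, and 0.0313% of the 35116 promoters in the table held at least as many. MT1X held 4 matches, and 0.370% of promoters held 4 or more. SLC30A1 held 1, and 24.8% of promoters held 1 or more, while MTF1 and both windows of SLC30A10 and of SLC39A10 held 0. Among other family genes, MT1H held 8 matches (0.0171% of promoters held as many or more), though it had at most 2 counts in any library. MT1B and MT4 held 3 each and had 0 counts. The shares were not matched for GC content, which was 73.2% in the MT2A window. The matches of the 10 genes are printed below on the strand of the gene with up to 4 bases on each side, the match in capitals. A match read on the opposite strand appears as its reverse complement.
MT2A match 1: ccgcTGCACCCagcc
MT2A match 2: gcccGTGTGCAgagc
MT2A match 3: cgggTGCGCCCggcc
MT2A match 4: ccagTGCGCGCggcc
MT2A match 5: gggcGTGTGCAggca
MT2A match 6: ctttTGCACTCgtcc
MT2A match 7: gcgcTGCACTCc
MT1X match 1: gcggTGCGCCCggcg
MT1X match 2: ttgcTGCACCCggcc
MT1X match 3: gggcGGGTGCAagga
MT1X match 4: cctcTGCGCCCggcc
SLC30A1 match 1: ttccGAGTGCAaagc
The MT2A window is chr16:56608334-56608583 on the plus strand, the MT1X window chr16:56682220-56682469 on the plus strand and the SLC30A1 window chr1:211579162-211579411 on the minus strand. In GENCODE 29 the transcript of MT2A starts further upstream, so that its window lies inside exon sequence of that model. The SLC30A1 window lies wholly beyond the deposited end of the gene, 211578742. Of the SLC30A10 windows, 1 lies beyond the deposited gene and 1 inside it, and both SLC39A10 windows lie inside their gene. The matches describe letters in these windows and are not evidence of binding.

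Total counts ran from 22250202 to 30739574 per library, and genes of the mitochondrial genome took 1.65% to 2.67%. All 11 hepatocyte markers passed the filter, with ALB at 6864 ± 341 CPM in DMSO (counts relative to the library total, adjusted by TMM; SD, n = 3) but TTR and FGB at 7.27 and 5.78 CPM. Their summed level went from between 28701 and 31867 CPM in DMSO to between 16838 and 19026 CPM in oridonin, with 7 called lower and 1 higher. The summed B cell and plasma cell markers went from 4.65 to 17.3 CPM across the DMSO libraries to 35.0 to 79.9 CPM across the oridonin libraries, with 3 of 7 tested called higher and 1 lower, while CD79B, MS4A1, MZB1 and PTPRC stayed under 1 CPM in every library. The sum was lowest in library 1 of each group. CD79A, called higher, went from 1.33 to 17.7 CPM on average. IGHA1, at 0.0456, 3.90 and 5.70 CPM in DMSO and 7.97, 30.9 and 27.5 CPM in oridonin, was not called, nor were IGHG1 and IGKC. Intestinal markers had 7 of 9 tested called higher and 1 lower, with FABP2, CDX1, CDX2, GUCA2A and KRT20 under 1 CPM throughout. Their summed level, 383 to 402 CPM in DMSO and 305 to 316 CPM in oridonin, is almost all VIL1, the gene called lower (388 and 297 CPM on average), while PIGR went from 0.245 to 4.10 CPM, LGALS4 from 0.984 to 3.07 CPM and MUC2 from 0.322 to 0.944 CPM. These shifts moved with the treatment, and the B cell and plasma cell sum also with the library number. Of the intestinal genes called higher, PIGR, LGALS4, TFF3 and CDH17 were likewise lowest by CPM in library 1 of each group. MUC2, CDX1 and CDX2 were lowest in library 1 of the DMSO group but not of the oridonin group. VIL1 was highest by CPM in library 1 of each group. The part of these shifts in the results below was not tested. In bulk RNA, fewer cells of a kind and less RNA per cell cannot be told apart.

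Oridonin-treated cells had more MT2A and MT1E message and less MT1F and MT1G, less of the manganese exporter SLC30A10 and of the importer SLC39A14, and slightly more MTF1, SLC30A1 and SLC39A10. Of the 10 genes, 9 were called at an adjusted p under 0.05 by edgeR's quasi-likelihood test with Benjamini-Hochberg adjustment over all genes tested, against 41.9% of all genes. They were 5 called higher (20.6% of all genes were) and 4 called lower (21.3% were). At 2-fold or more, 1 was higher (3.12% of all genes) and 3 were lower (1.6%). For 9 genes the DMSO and oridonin libraries did not overlap, as held for 51.6% of all genes. The median log2 fold change of the 10 genes was 0.06, beside 0.01 over all genes tested. The 10 genes were chosen with earlier results of these data known, so these shares do not test the list.

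**Figure D1:**
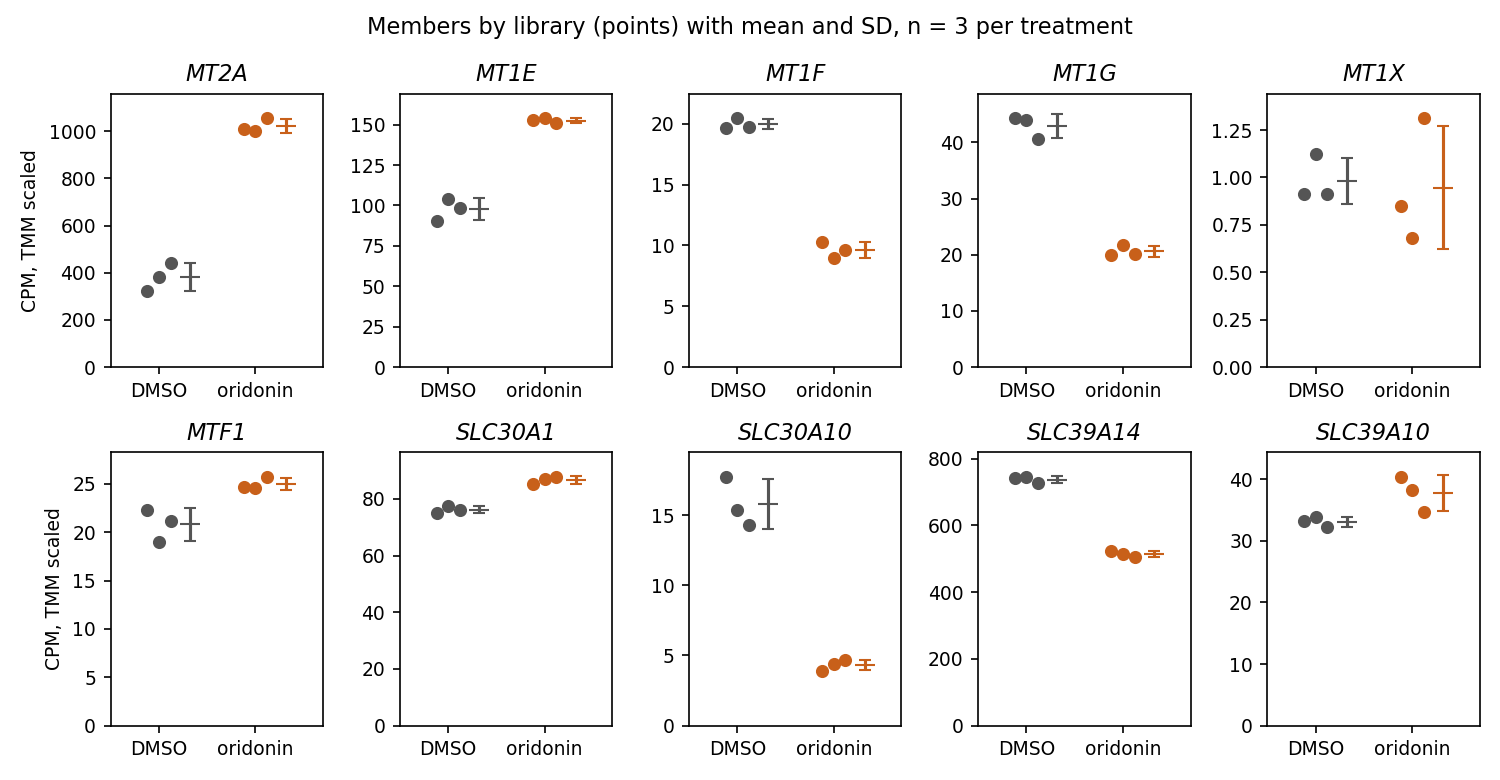
Level of each of the 10 genes in CPM (vertical axis, scaled by TMM) in the 3 DMSO and 3 oridonin libraries, with points for libraries and bars for the mean and SD. The 2 groups are separate for every gene but MT1X, whose libraries overlap.

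MT2A, the metallothionein with the highest level, is at chr16:56608199-56609497 on the plus strand (ENSG00000125148). Its level was 323, 382 and 442 CPM in the DMSO libraries and 1008, 1002 and 1054 CPM in the oridonin libraries. Every oridonin library was above every DMSO library, and the DMSO libraries spread more widely than the oridonin ones. The mean was 382 ± 59.6 CPM (SD, n = 3) in DMSO and 1021 ± 28.7 CPM (SD, n = 3) in oridonin, 2.67-fold higher. The log2 fold change was 1.42 ± 0.10 (SE, 95% interval 1.20 to 1.64, adjusted p = 2.56e-06 by edgeR).

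MT1E, at chr16:56625475-56627112 on the plus strand (ENSG00000169715), had 90.5, 104 and 98.7 CPM in DMSO and 153, 154 and 151 CPM in oridonin. The groups were clearly apart and the oridonin libraries were close together. The rise was 1.56-fold, with a log2 fold change of 0.64 ± 0.05 (SE, 95% interval 0.52 to 0.75, adjusted p = 7.56e-08 by edgeR), and this interval lies below that of MT2A.

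MT1G and MT1F moved the other way. MT1G, on the minus strand at chr16:56666731-56668065 (ENSG00000125144), had 44.3, 44.1 and 40.5 CPM in DMSO and 20.03, 21.7 and 20.1 CPM in oridonin. It was 2.08-fold lower, with a log2 fold change of -1.06 ± 0.07 (SE, 95% interval -1.20 to -0.92, adjusted p = 2.09e-09 by edgeR). All DMSO libraries were above all oridonin libraries by far more than either group's spread. MT1F, at chr16:56657694-56660698 on the plus strand (ENSG00000198417), had 19.7, 20.4 and 19.8 CPM in DMSO and 10.3, 8.99 and 9.61 CPM in oridonin. Its fall was 2.07-fold, with a log2 fold change of -1.05 ± 0.08 (SE, 95% interval -1.22 to -0.88, adjusted p = 2.33e-08 by edgeR). The intervals of MT1F and MT1G overlap almost wholly, so the 2 falls could not be told apart in size.

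MT1X, at chr16:56682424-56684196 on the plus strand (ENSG00000187193), was near the limit of what the counts can show. Stretches of MT1X also occur in AC026461.1, as given above, so some of its reads may have gone uncounted, which was not tested. It had 20, 32 and 25 counts in DMSO and 27, 21 and 37 counts in oridonin, or 0.911, 1.12 and 0.913 CPM against 0.848, 0.682 and 1.31 CPM. The groups overlapped, and oridonin library 3 was the highest and oridonin library 2 the lowest of all 6. The log2 fold change was -0.07 ± 0.28 (SE, adjusted p = 0.861 by edgeR) with a 95% interval of -0.66 to 0.52. A rise as large as that of MT2A, or a fall as large as that of MT1G, lies outside this interval.

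Of the 18 genes and pseudogenes listed for the metallothionein family, 6 were tested, 3 were called higher, 2 were called lower and 1 was not called. Another 6 had 0 counts in all 6 libraries, and the rest were too low to test. The gene that adds to the rises is MT1A, with 24, 42 and 23 counts in DMSO and 59, 54 and 60 counts in oridonin. Its log2 fold change was 0.74 ± 0.23 (SE, adjusted p = 0.014 by edgeR). The deposited model of MT1A runs from 56638666 to 56750276, across MT1F, MT1G and MT1X, whereas GENCODE 29 ends it at 56640087, so reads counted to it are uncertain. Without DMSO library 3 the MT1A change was no longer called (log2 fold change 0.55, adjusted p = 0.0744), nor without oridonin library 3 (0.66, adjusted p = 0.0523).

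Summed over the 9 functional MT1 and MT2A genes, the level was 480, 553 and 603 CPM in DMSO and 1194, 1189 and 1239 CPM in oridonin. The means were 545 ± 62.0 CPM and 1207 ± 27.4 CPM (SD, n = 3 each), 2.21-fold higher with oridonin. Without MT2A the remaining 8 genes summed to 157, 172 and 161 CPM and to 186, 187 and 184 CPM, which is 1.14-fold higher. The falls of MT1F and MT1G thus stood against the rise of MT1E in the rest of the family, and MT2A carried most of the rise in the sum.

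Per gene length, the make-up of the metallothionein pool shifted toward MT2A. Its share of the summed FPKM of the 7 family genes in the deposited log2 FPKM table was 60.8%, 62.9% and 67.8% in the DMSO libraries and 81.0%, 80.7% and 81.7% in the oridonin libraries. MT1G went from 12.6% ± 1.84 to 2.84% ± 0.176 (SD, n = 3 each). MT1E went from 20.4% ± 1.45 to 14.96% ± 0.444, although its own level rose. MT1F went from 2.32% ± 0.235 to 0.525% ± 0.0361. The ratio of MT2A to MT1G in FPKM was 4.20, 4.99 and 6.28 in DMSO and 29.04, 26.5 and 30.3 in oridonin. That these do not overlap follows from MT2A being higher and MT1G lower in every oridonin library. These levels use the deposited gene lengths (1299 bases for MT2A, 1052 for MT1E, 750 for MT1G and 1889 for MT1F), which are longer than the GENCODE transcripts chosen here (786, 704, 406 and 690 bases). Shares and changes in a share therefore depend on the lengths used, while a gene's own fold change does not. By CPM, which uses no length, the mean share of MT2A among the 9 functional genes went from 69.8% to 84.6% and that of MT1G from 7.97% to 1.71%.

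**Figure D2:**
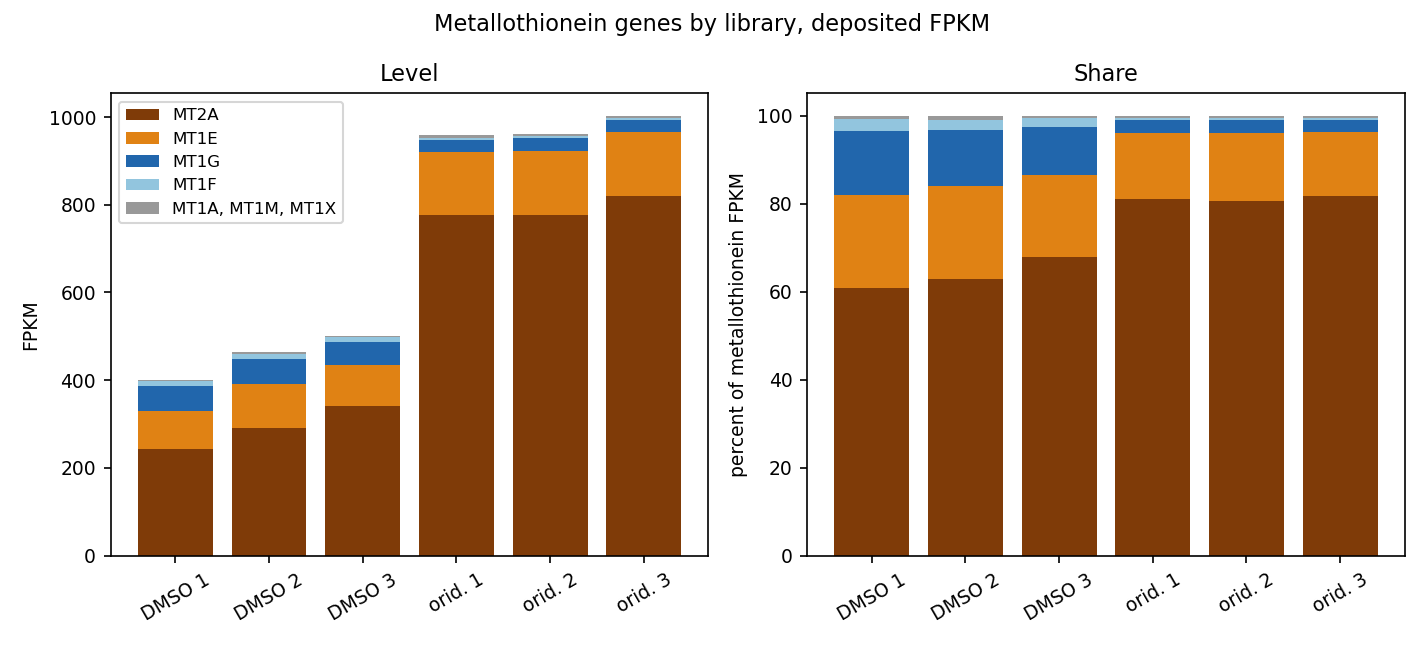
Stacked FPKM of the metallothionein genes in each library (left, FPKM; right, percent of the summed metallothionein FPKM), with MT1A, MT1M and MT1X together as 1 segment. MT2A holds 60.8% to 67.8% of the stack in DMSO and 80.7% to 81.7% in oridonin, and the MT1G segment shrinks.

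The places of the metallothionein genes along the chromosome are given with their neighbours. The left end of MT1E is 17.3 kb, that of MT1A 30.5 kb, of MT1F 49.5 kb, of MT1G 58.5 kb and of MT1X 74.2 kb from the left end of MT2A. Of the 9 other tested genes within 400 kb of the cluster, a distance chosen after the values were seen, 0 were called higher, 5 lower and 4 were not called, beside 20.6% higher and 21.3% lower over all genes tested. NUDT21 had a log2 fold change of -0.39, SLC12A3 of -1.93, HERPUD1 of -0.25, CETP of -1.21 and NLRC5 of -0.40. The NLRC5 call was lost without DMSO library 3 (-0.29, adjusted p = 0.0937) and without oridonin library 2 (-0.32, adjusted p = 0.0917).

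**Figure D3:**
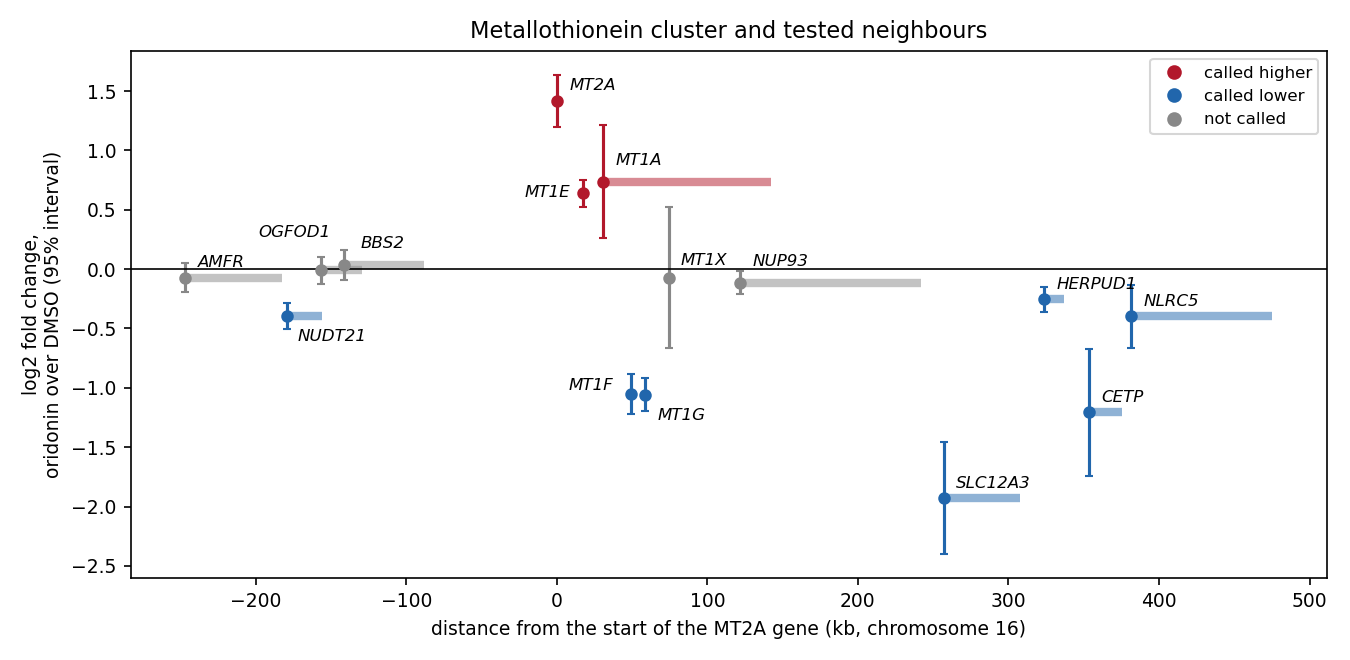
Log2 fold change of each tested gene (vertical axis, points at the left end of each gene with the 95% interval, bars spanning the deposited gene model) against its distance in kb from the left end of MT2A on chromosome 16. MT2A, MT1E and MT1A lie above 0, MT1F and MT1G below, and the interval of MT1X crosses 0.

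MTF1, the gene of the zinc sensor, is on chromosome 1 at chr1:37809567-37859620 on the minus strand (ENSG00000188786). It had 22.3, 18.97 and 21.1 CPM in DMSO and 24.7, 24.6 and 25.7 CPM in oridonin. The groups did not overlap, but the gap between them was smaller than the range of the DMSO libraries. The change was 1.20-fold, with a log2 fold change of 0.27 ± 0.07 (SE, 95% interval 0.12 to 0.42, adjusted p = 0.00654 by edgeR). Without DMSO library 2, the lowest, it was 0.20 and not called (adjusted p = 0.0586).

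SLC30A1, which carries zinc out across the plasma membrane, is at chr1:211571568-211578742 on the minus strand (ENSG00000170385). Its libraries had 75.1, 77.4 and 76.3 CPM in DMSO and 85.2, 87.2 and 87.8 CPM in oridonin. Both groups were tight and well apart, though the difference was small. It was 1.14-fold higher, with a log2 fold change of 0.18 ± 0.05 (SE, 95% interval 0.08 to 0.29, adjusted p = 0.00594 by edgeR).

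SLC30A10, which exports manganese, had the greatest fall of the 10 genes. It is at chr1:219685427-219958647 on the minus strand (ENSG00000196660). It had 389, 437 and 391 counts in DMSO and 125, 136 and 131 in oridonin, or 17.7, 15.3 and 14.3 CPM against 3.92, 4.41 and 4.64 CPM. Every DMSO library was far above every oridonin library. The mean went from 15.8 ± 1.76 to 4.33 ± 0.368 CPM (SD, n = 3 each), 3.65-fold lower, with a log2 fold change of -1.86 ± 0.11 (SE, 95% interval -2.10 to -1.63, adjusted p = 9.83e-10 by edgeR).

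SLC39A14, the manganese, zinc and iron importer, is at chr8:22367249-22434129 on the plus strand (ENSG00000104635). It had 741, 745 and 726 CPM in DMSO and 522, 515 and 505 CPM in oridonin. The groups were far apart beside spreads of 10.2 and 8.71 CPM (SD, n = 3 each). The fall was 1.43-fold, with a log2 fold change of -0.52 ± 0.04 (SE, 95% interval -0.61 to -0.43, adjusted p = 7.49e-08 by edgeR).

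SLC39A14 and SLC30A10 thus both fell, SLC30A10 more. Other transport genes listed for manganese went both ways, such as SLC11A2 with a log2 fold change of -0.61 and SLC40A1 with 0.67. The ratio below therefore describes these 2 genes and not the balance of import and export. SLC39A14 over SLC30A10 in FPKM was 34.8, 40.5 and 42.2 in the DMSO libraries and 111, 97.0 and 90.5 in the oridonin libraries. All oridonin ratios were above all DMSO ratios, with means of 39.2 ± 3.90 and 99.4 ± 10.3 (SD, n = 3 each).

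SLC39A10, a plasma membrane zinc importer, is at chr2:195575977-195737702 on the plus strand (ENSG00000196950). It had 33.2, 33.9 and 32.3 CPM in DMSO and 40.4, 38.2 and 34.6 CPM in oridonin. The groups did not overlap, but oridonin library 3 was close to the DMSO libraries. The change was 1.14-fold, with a log2 fold change of 0.19 ± 0.07 (SE, 95% interval 0.05 to 0.33, adjusted p = 0.0301 by edgeR). The call was lost without any of the 3 DMSO libraries (adjusted p = 0.0674, 0.0594 and 0.0599 without libraries 1, 2 and 3), without oridonin library 1 (0.174) or 2 (0.0844), and with DESeq2 (0.0750).

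**Figure D4:**
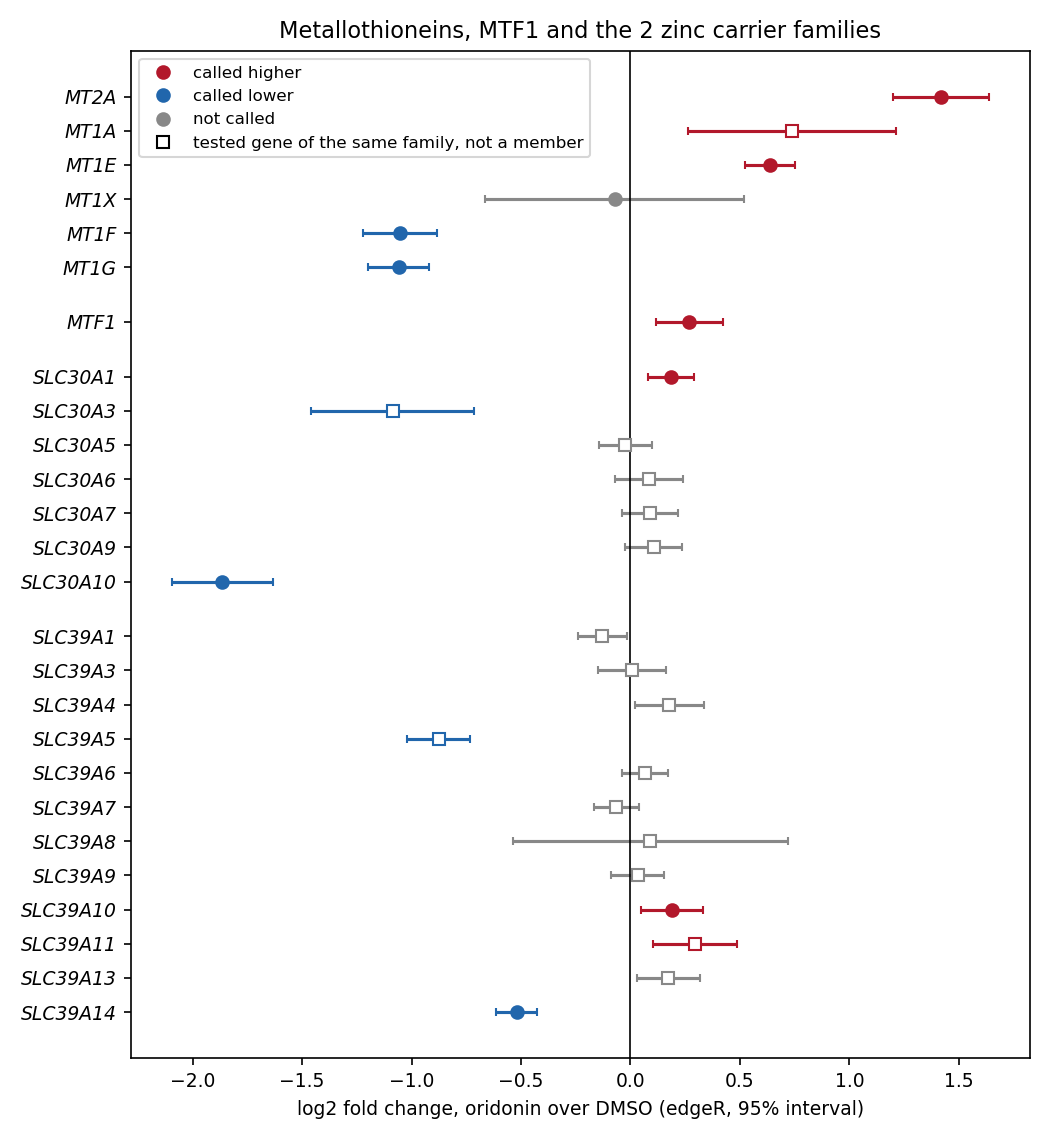
Log2 fold change of oridonin over DMSO (horizontal axis) with its 95% interval for the tested metallothioneins, MTF1 and the tested SLC30 and SLC39 genes, with filled circles for the 10 genes of interest and open squares for other family genes. SLC30A10 at -1.86 is the furthest left and MT2A at 1.42 the furthest right.

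Levels between genes were compared on the deposited log2 FPKM scale. In DMSO the order by median was MT2A (8.19), SLC39A14 (6.72), MT1E (6.55), MT1G (5.86), SLC30A1 (3.80), MT1F (3.39), SLC39A10 (2.24), MTF1 and SLC30A10 (1.40 each) and MT1X (-0.96). MTF1 and SLC30A10 overlapped in DMSO, at 1.46, 1.23 and 1.40 against 1.60, 1.40 and 1.31, and every other pair of neighbours was separate. In oridonin the order was MT2A (9.60), MT1E (7.18), SLC39A14 (6.22), MT1G (4.76), SLC30A1 (4.0), SLC39A10 (2.48), MT1F (2.36), MTF1 (1.63), SLC30A10 (-0.38) and MT1X (-1.07). SLC39A10 and MT1F overlapped there, as did SLC30A10 and MT1X. MT1E and SLC39A14 exchanged places. The SLC30A10 median went from that of MTF1 to a value between those of MTF1 and MT1X. Among the 18404 genes of the deposited table, the MT2A median stood at percentile 99.4 in DMSO and 99.9 in oridonin, and that of SLC30A10 at percentile 51.8 and 34.7.

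**Figure D5:**
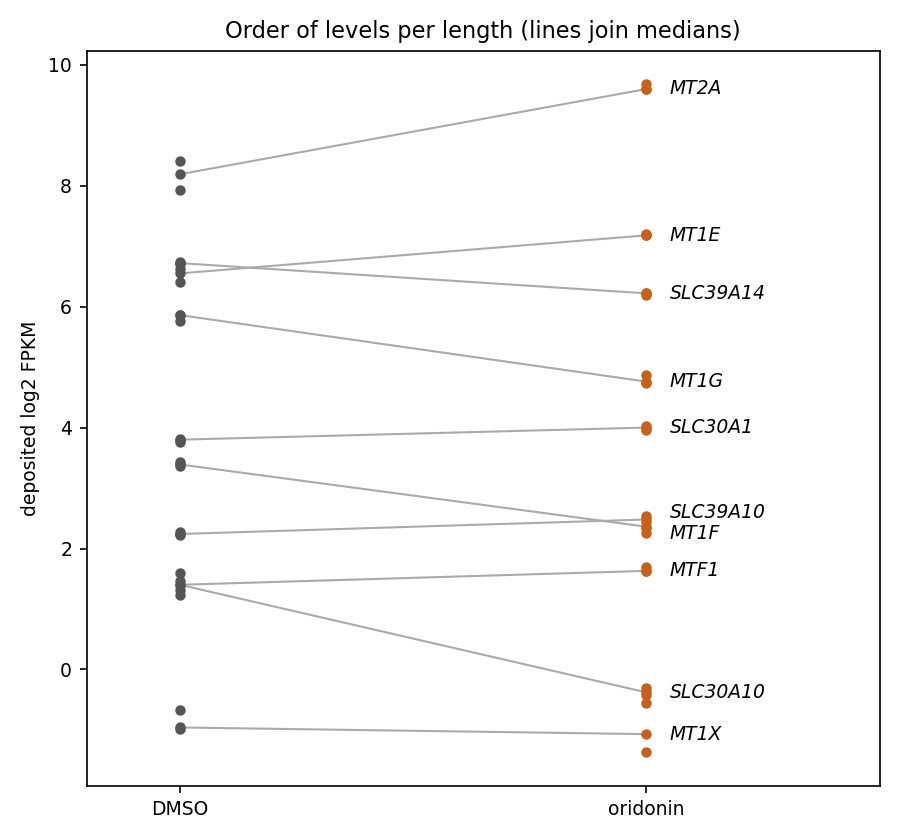
Deposited log2 FPKM (vertical axis) of the 10 genes in each library of DMSO and oridonin, with lines joining the group medians. The lines of MT1E and SLC39A14 cross, and that of SLC30A10 falls from 1.40 to -0.38.

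The counts of the gene lists that follow stand beside 20.6% called higher, 21.3% called lower and a median log2 fold change of 0.01 over all genes tested. Within the SLC30 family, 7 of 10 genes were tested, 1 was called higher and 2 were called lower, and the median log2 fold change was 0.09. Beyond SLC30A1 and SLC30A10, SLC30A3, which loads zinc into vesicles, fell from 3.25 ± 0.175 to 1.54 ± 0.289 CPM (SD, n = 3 each), a log2 fold change of -1.09 ± 0.18 (SE, adjusted p = 1e-04 by edgeR). Within the SLC39 family, 12 of 14 were tested, 2 were called higher and 2 lower, with a median of 0.05. SLC39A5, a zinc importer, fell from 38.6 ± 0.485 to 21.0 ± 1.65 CPM (SD, n = 3 each), a log2 fold change of -0.88 ± 0.07 (SE, adjusted p = 2.77e-08 by edgeR). SLC39A11 had a log2 fold change of 0.29 ± 0.09 (SE, adjusted p = 0.0156 by edgeR), with overlapping groups. Its call was lost without DMSO library 3 (0.22, adjusted p = 0.0555) or oridonin library 1 (0.24, adjusted p = 0.0854). SLC39A8, the relative of SLC39A14 that also carries manganese, had 0.687 and 0.740 CPM on average and was not called (adjusted p = 0.832 by edgeR).

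Of 15 genes listed for manganese transport and manganese enzymes, 14 were tested, 4 were called higher and 6 were called lower, and the median log2 fold change was -0.00. Beside SLC30A10, SLC39A14 and SLC11A2, the lower genes include ARG1, the manganese enzyme arginase, at 4.37 ± 0.880 and 0.819 ± 0.192 CPM (SD, n = 3 each), and GLUL, glutamine synthetase, at 266 ± 5.13 and 186 ± 2.91 CPM. The log2 fold changes were -2.39 for ARG1 and -0.52 for GLUL. The higher ones include SLC40A1, the iron exporter ferroportin, with a log2 fold change of 0.67, and ATP13A2, a lysosomal transport ATPase, with 0.45. ARG1 is a product of hepatocytes, whose summed markers also fell as given above.

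Copper handling genes, which share the metallothioneins as a buffer, had 16 of 18 tested, 6 called higher and 3 lower, with a median of 0.02. The copper chaperones ATOX1 and COX17 rose, with log2 fold changes of 0.35 and 0.33, as did COMMD1 with 0.36 and CUTC with 0.30. CP, the secreted copper protein ceruloplasmin, fell from 212 ± 17.0 to 94.4 ± 10.6 CPM (SD, n = 3 each), a log2 fold change of -1.16. ATP7B, the copper exporter of the liver, fell with a log2 fold change of -0.43.

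All 10 of the other genes linked to MTF-1 in earlier literature were tested, and 5 were called higher and 3 lower, with a median of 0.12. GCLC, the catalytic subunit of glutamate-cysteine ligase in glutathione synthesis, rose from 103 ± 3.88 to 160 ± 4.09 CPM (SD, n = 3 each), a log2 fold change of 0.63. PGF, placental growth factor, rose by 0.54 on the log2 scale, SELENOW, a selenoprotein, by 0.40, and PRNP, the prion protein gene, by 0.20. HAMP, the iron hormone hepcidin, fell from 165 ± 10.3 to 86.8 ± 1.57 CPM (SD, n = 3 each), a log2 fold change of -0.93, and CSRP1, a zinc-binding LIM protein, had -0.46.

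Metallothionein genes also answer to glucocorticoids. Of 11 genes for the glucocorticoid receptor and its targets, 9 were tested, 2 were called higher and 3 lower, with a median of 0.02. NR3C1, the receptor gene, had a log2 fold change of -0.47 and TSC22D3, a target, -0.49. KLF9, another target, rose from 4.38 ± 0.622 to 8.76 ± 0.999 CPM (SD, n = 3 each), a log2 fold change of 1.01. ERRFI1 at -0.17 was no longer called with total-count scaling (-0.09, adjusted p = 0.119). DUSP1 had 0.26, and lost its call without DMSO library 1 (0.19, adjusted p = 0.0584), DMSO library 2 (0.22, adjusted p = 0.0720) or oridonin library 3 (0.22, adjusted p = 0.0509).

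Among 11 factors linked to SLC39A14 or SLC30A10, 10 were tested, 3 were called higher and 3 lower, with a median of 0.01. IL6R, a receptor of interleukin 6, which is known to raise SLC39A14, rose by 0.56 on the log2 scale, and STAT3, its transcription factor, by 0.18. IL6ST, another receptor gene for interleukin 6, was called lower, with a log2 fold change of -0.15 (adjusted p = 0.0349 by edgeR). SOCS3, a STAT3 target, had 0.85 but only 1.19 and 2.13 CPM on average, and its call was lost without DMSO library 2 (0.64, adjusted p = 0.0532). XBP1 and ATF4, factors of the unfolded protein and integrated stress responses, had log2 fold changes of -0.69 and -0.52.

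The genes whose pattern was most like a carrier or like MT2A were found by the root mean square difference of log2 CPM, centred on each gene's mean, over the 6 libraries and 10016 protein-coding genes. Nearest to SLC30A10 were KANK4 (difference 0.100), ACSM3 (0.115) and SSC4D (0.132). Nearest to SLC39A14 were PDIA4 (0.015), RBM3 (0.018) and BIRC5 (0.022). Nearest to MT2A were SH2D5 (0.074), CYP4F11 (0.078) and SFN (0.078). These points share libraries and a single contrast, and the measure describes likeness only.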

How the data were processed

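RNA sequencing libraries of 6 HepG2 samples (3 oridonin, 3 DMSO) were used. The authors deposited raw counts per gene for 60504 genes and log2 FPKM values for 18404 genes, per the file headers. The submitters' processing notes name the build hg38 and the tool DESeq2 1.10.1. The aligner, the counter and whether counting used strand were not given in the sources used here, so overlapping and antisense genes can share reads. Coordinates are those of the deposited annotation, and 10 of 10 genes matched GENCODE 29.

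Counts were tested with edgeR 4.0.16 (filterByExpr, TMM scaling, robust glmQLFit, glmQLFTest) in R 4.3.3 with treatment as the only term, with calls where the Benjamini-Hochberg adjusted p over 15116 genes was under 0.05. The SE is the log2 fold change divided by the square root of F. Alternatives were DESeq2 1.42.0, limma 3.58.1 on log2 FPKM, other scalings and filters, a replicate block and leaving out each library. The likeness measure used protein-coding genes at a mean CPM of 5 or more and a pseudocount of 0.1 CPM.

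Named genes are the 10 genes and, of each pathway list, up to 4 called genes (by smallest p) in whichever direction had more calls and up to 2 in the other, with 3 nearest genes for likeness. Neighbouring genes, SLC39A8, and MT1A's gene model were looked at after values were seen. SLC11A2, IL6ST and the MT1H, MT1B and MT4 windows were named after values were seen too. Genes and lists were chosen with earlier results of these data known. No protein sequences were used, so identity was computed on coding sequences, and promoters of MT1E, MT1F, MT1G and SLC39A14 were not analysed here. Within a treatment, libraries differed beyond sampling noise, so none was counted as a repeat. Reads carry no molecular identifiers in the labels, so counts are not independent molecules. Gene lists for fibroblast, endothelium, macrophage, T cell, red blood cell and bile duct markers were summed too.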

Additional observations from a re-analysis of the deposited data

How the results depend on the processing

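With 13 alternatives, MT2A, MT1E, MT1F, MT1G, SLC30A1, SLC30A10 and SLC39A14 kept their direction and their call in each. MT1X stayed uncalled in the 12 that could test it (the filter at a mean of 1 CPM drops it), and its sign was not stable, with log2 fold changes of -0.36 to 0.12. The genes called higher among the 10 numbered 5, and leaving out 1 library gave 3 to 5, with 3 without DMSO library 2, where MTF1 and SLC39A10 lost their calls. DESeq2 gave 4. The genes called lower numbered 4 in every alternative. Over all genes, 6332 were called, leaving out 1 library gave 5282 to 6547, and with total-count scaling 65.5% of 6846 calls were upward against 49.2% with TMM, as that scaling shifts the median of all genes by 0.08 on the log2 scale. The log2 ratio of summed metallothionein CPM was 1.15, 1.06 to 1.23 leaving out 1 library, and 0.19 without MT2A, an alternative chosen after seeing the data. Of 48 other named genes followed across the alternatives, 41 kept their side of the threshold throughout, and 0 reversed. SLC11A2 and IL6ST were not among those followed. NUP93 was called only with the replicate block (-0.11, adjusted p = 0.00846). MT1A (0.74, adjusted p = 0.0640) and NLRC5 (-0.40, adjusted p = 0.0561) lost their calls with DESeq2, and NLRC5 (-0.37, adjusted p = 0.209) and DUSP1 (0.29, adjusted p = 0.0509) with limma.

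Replicate numbers are shared between the groups but do not pair the samples by the labels. Deviations of same-numbered libraries correlated at 0.194, 0.0651 and 0.173, and each library correlated best with its own number, a hint from the data only. With the replicate block 7689 genes were called, and the 10 genes gave 5 higher and 4 lower, as without it. Counts of 20 to 37 per library for MT1X and of 23 to 60 for MT1A limit what can be said of both.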

Other observations

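Markers of other cell types not described above also differed between the groups. Summed bile duct markers went from 1026 to 1212 CPM across the DMSO libraries to 1620 to 1778 CPM across the oridonin libraries, with KRT19 called higher (560 and 1268 CPM on average), SOX9 and EPCAM called lower, and KRT7 under 1 CPM throughout. Fibroblast markers summed to 59.0 to 68.6 CPM and 36.0 to 36.5 CPM, almost all of it PDGFRB, which was called lower (60.8 and 32.1 CPM on average), while COL1A1 was called higher (0.989 and 2.28 CPM) and 1 of the 3 tested was not called. Macrophage markers summed to 679 to 712 CPM and 420 to 451 CPM, almost all of it LYZ, which was called lower (694 and 433 CPM), with CD68, CD163 and CSF1R under 1 CPM throughout. Endothelial markers summed to 5.62 to 7.52 CPM and 7.87 to 8.73 CPM, mostly PECAM1, which was called higher (5.59 and 7.65 CPM), while CDH5 was called lower (0.468 and 0.132 CPM). T cell markers summed to at most 3.58 CPM, mostly CD3D, and red blood cell markers to at most 0.390 CPM. Their part in the metal-handling results was not tested.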
